A study of Mus musculus with 6 samples.

Results

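Long noncoding RNAs are transcripts that are not translated into a protein, and 9 well-known genes of this class were examined in mouse endothelial cells: *Malat1*, *Neat1*, *Gas5*, *Snhg1*, *Snhg5*, *Snhg8*, *Snhg12*, *Snhg17* and *Epb41l4aos*. They were chosen by symbol and found in the table of gene counts through their Ensembl identifiers. Of the 9 genes, 8 matched 1 of the 24080 rows each and all 8 were tested. *Snhg1* matched no row and was not analysed here as a gene, but the 8 small RNA genes inside it had rows. RNA of 2 related endothelial cell lines, which differ in the adhesion protein VE-cadherin (VEC), was sequenced in 3 libraries each. Both lines carry the homozygous null mutation of the VEC gene and descend from mouse embryonic stem cells that had been differentiated into endothelium. The VEC-positive line is the VEC-null line into which wild type VEC had been brought by a retrovirus, and the VEC-null line is its parent. Each condition is therefore 1 line, so the difference between the lines and the effect of VEC cannot be told apart. The study calls the libraries biological replicates of each line, and no source used here says what was repeated (a culture, a passage or an extraction). Where only the preparation was repeated, p-values measure only technical spread.

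Recovered reads numbered 6036155 to 14136376 per library, with a median of 11128657. The VEC gene itself, *Cdh5*, ran against the labels: it had 794, 739 and 750 normalized counts in the libraries labelled VEC-positive, against 1334, 1439 and 1689 in the libraries labelled VEC-null, a log2 fold change of −0.96 ± 0.10 (SE, adjusted p = 0.000182). Which part of the gene the null allele lacks, and whether reads of the retroviral copy are in this row, was not tested, so every direction below is one between labels. Library VEC-null 3 was unlike the other VEC-null libraries (chi-square per gene of 49.0 and 49.8, against 6.53 between VEC-null 1 and 2). The mitochondrial share of reads was 18.0 to 24.2% in the VEC-positive libraries and 9.62 to 14.9% in the VEC-null libraries. Of 12 endothelial markers 10 were higher, among them *Vwf* (von Willebrand factor, log2 fold change 2.12, adjusted p = 8.82e-07), 1 was lower (*Cdh5*) and 1 was not called, with summed normalized counts of 74855 to 77058 in the VEC-positive and 51498 to 54982 in the VEC-null libraries. Of 8 mural cell and fibroblast markers 7 had a row, and these summed to 237 to 282 in VEC-positive and 83.3 to 210 in VEC-null libraries. *Pdgfrb* (means of 105 and 1.10) was higher and was the only 1 called of the 4 tested. *Acta2* (8.59 and 19.4), *Tagln* (1.25 and 3.93), *Rgs5* (2.21 and 4.52) and *Col1a2* (72.8 and 80.2) had lower means in VEC-positive libraries. *Col1a1* (18.3 and 2.96) and *Pdgfra* (55.7 and 39.9) had higher means. Of 8 blood cell markers 4 had a row, and these summed to 112 to 166 in VEC-positive and 120 to 419 in VEC-null libraries. Most of that sum was *Itgam* (means of 133 and 293). *Cd68* had means of 10.7 and 20.9, and *Ptprc* (1.08 and 0.773) and *Spi1* (0 and 1.30) were near 0. Of 8 pluripotent cell markers 4 had a row, and these summed to 0.974 to 13.7 and 3.55 to 10.7. No marker row was at 0 in all libraries. Their part in the results below was not tested. In such bulk samples, fewer cells of a type and less RNA per cell cannot be told apart.

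The 9 genes fall into 2 kinds. *Malat1* and *Neat1* are nuclear RNAs made next to each other on 1 chromosome, and *Malat1* and the long form of *Neat1* end in a folded 3′ structure in place of a poly(A) tail. *Malat1* RNA collects in nuclear speckles, where splicing factors are stored, and *Neat1* RNA is the scaffold on which paraspeckles assemble. *Gas5*, *Snhg1*, *Snhg5*, *Snhg8*, *Snhg12* and *Snhg17* are small nucleolar RNA (snoRNA) host genes. Their introns release snoRNAs, which guide the chemical modification of ribosomal and other small RNAs, while the spliced transcript is exported and, in *Gas5* and several others, is short-lived because ribosomes that begin to translate it trigger nonsense-mediated decay. *Epb41l4aos* is named for lying on the strand opposite to *Epb41l4a*, a gene for a membrane-skeleton protein. The annotation also places 1 snoRNA gene, *Gm23639*, inside it on the same strand and outside its exons, so by position *Epb41l4aos* is a host as well.

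Many snoRNA host genes carry a 5′ terminal oligopyrimidine (TOP) start, as the genes of ribosomal proteins do. The sequences around the starts of the members were therefore searched for runs of pyrimidines. These sequences are taken from RefSeq (GRCm38.p6), which held a start for 7 of the 9 genes with 9 start windows between them. *Neat1* had no entry. Each line gives 40 bases before and 20 bases from the transcript start, 5′ to 3′, and capitals mark TATA or TATATA found 40 to 16 bases before the start and any unbroken run of at least 5 pyrimidines (C or T) that overlaps the stretch from 2 bases before the start to the first 5 bases of the transcript. This tolerance allows a run to begin a few bases after the annotated start, as in *Snhg1*. A marked run therefore does not by itself show a TOP start. *Malat1* is shown as the member that hosts no snoRNA, and *Snhg17* and *Gas5* with the second of their annotated starts, since the first of each held neither feature.
*Malat1* (chr19:5802653-5802712, minus strand): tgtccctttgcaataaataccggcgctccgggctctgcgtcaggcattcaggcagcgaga
*Gas5* (chr1:161035126-161035185, plus strand): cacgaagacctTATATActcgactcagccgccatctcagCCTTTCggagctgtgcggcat
*Snhg1* (chr19:8723447-8723506, plus strand): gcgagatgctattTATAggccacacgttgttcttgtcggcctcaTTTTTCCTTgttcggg
*Snhg5* (chr9:88522878-88522937, minus strand): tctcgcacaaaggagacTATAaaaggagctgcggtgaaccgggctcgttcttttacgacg
*Snhg8* (chr3:123508317-123508376, minus strand): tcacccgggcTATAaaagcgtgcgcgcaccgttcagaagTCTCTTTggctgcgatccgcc
*Snhg12* (chr4:132308638-132308697, plus strand): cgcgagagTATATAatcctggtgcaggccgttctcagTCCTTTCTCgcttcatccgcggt
*Snhg17* (chr2:158361490-158361549, minus strand): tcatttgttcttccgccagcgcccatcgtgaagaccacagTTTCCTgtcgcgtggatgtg

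TATA (searched on the strand of the gene) was present in 5 of the 9 windows and a run of at least 6 pyrimidines in 5 of the 9. Both were held by 4 windows, those of *Gas5*, *Snhg1*, *Snhg8* and *Snhg12*. Over all 32851 mouse promoters of the same table, 5.91% held TATA in this position, 16.6% held such a run and 0.974% held both. *Snhg5* had TATA and its longest run in that stretch was 3 pyrimidines, with a longer one (ttctttt) further into the transcript that the rule does not count, *Snhg17* had a run of 6 with no TATA, and *Malat1* had neither. The near end of the TATA window was moved closer to the start after the sequences had been seen, which brought in *Snhg5*. A match of letters is a description of the window and not a measured start or binding site.

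By level the members spanned a wide range, with *Malat1* far above the others. A normalized count is the number of reads of a gene divided by a size factor of its library. Among the 2667 rows annotated as long noncoding RNA, ranked by mean normalized count over the 6 libraries, *Malat1* was number 5 and *Neat1* number 10, whereas *Snhg5* was number 60, *Epb41l4aos* 173, *Snhg17* 174, *Snhg12* 212, *Gas5* 225 and *Snhg8* 484. A mean of at least 50 was reached by 184 of these rows, *Malat1*, *Neat1*, *Snhg5*, *Epb41l4aos* and *Snhg17* among them and *Snhg12*, *Gas5* and *Snhg8* not. These ranks are of counts, which favour long transcripts such as *Neat1*. Ranked above *Malat1* were the gene models *Gm43305*, *Gm42418*, *Gm42428* and *Gm26917*, and what their reads come from was not tested. Only levels divided by exon length compare genes with each other, and this length joins the exons of all annotated transcripts. In *Snhg12* (2402 bases) and *Snhg8* (853 bases) it is 1 block over the whole gene, whereas *Epb41l4aos* has 430 bases in 3 blocks. Where the spliced RNA is shorter than this length, its level per kilobase comes out too low, so the order below depends on the annotation. Per kilobase of annotated exon, *Malat1* averaged 5165 ± 747 normalized counts in VEC-positive and 4644 ± 840 in VEC-null libraries (SD, n = 3 each, as for every mean given here), 86.3 times *Neat1* over all 6 libraries. *Epb41l4aos* averaged 70.9 ± 7.32 per kilobase in VEC-positive and 177 ± 57.8 in VEC-null libraries, and *Snhg5* 81.0 ± 25.4 and 99.3 ± 22.0. *Neat1* followed with 57.8 ± 9.67 per kilobase in VEC-positive and 55.8 ± 10.1 in VEC-null libraries. The 4 others lay lower in the order *Snhg8*, *Snhg12*, *Gas5* and *Snhg17* in the VEC-positive libraries, between 18.8 ± 5.86 and 5.57 ± 0.872 per kilobase, and between 21.3 ± 3.54 (*Snhg12*) and 9.52 ± 2.29 (*Snhg17*) in the VEC-null libraries. Of neighbours in this order, *Snhg5* and *Epb41l4aos*, and *Snhg8* and *Snhg12*, differed by less than the larger SD of the pair in the VEC-positive libraries. In the VEC-null libraries the same held for *Snhg12* and *Snhg8*, *Snhg8* and *Gas5*, and *Gas5* and *Snhg17*.

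**Figure D1:**
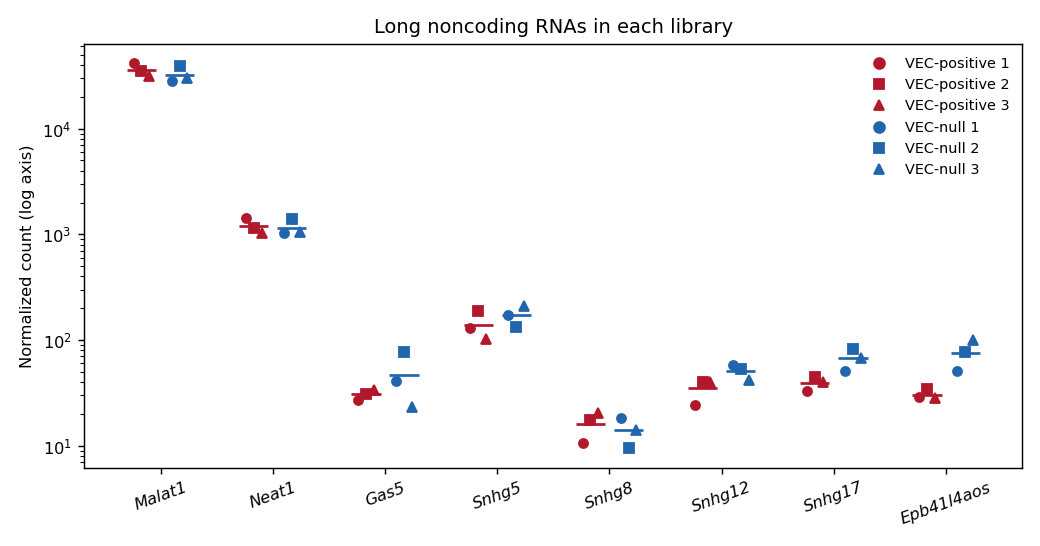
Normalized counts of the 8 members on a log axis, with a point for each of the 6 libraries and a line at the mean of each group, the libraries labelled VEC-positive (red) to the left of those labelled VEC-null (blue). *Epb41l4aos*, *Snhg17* and *Snhg12* are the 3 genes whose groups do not overlap.

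Of the 8 members, 2 had lower values in the VEC-positive libraries, 0 were higher and 6 were not called in limma at an adjusted p of 0.05 over 14032 genes. Called members made up 25% of the 8, against 37.3% of all tested genes. The same 25% were lower, against 16.4% of all tested genes, and the members had no higher call, against 20.9% of all tested genes. At an unadjusted p of 0.05 or by edgeR and DESeq2 no member was higher either. With 8 genes, these shares do not set the members apart from other genes. Scaling to equal totals gave 4960 lower and 1566 higher genes, against 2304 and 2927 as deposited, and 3 lower members. The 2 groups did not overlap in 3 of the 8 members, against 50% of all tested genes. The log2 fold change was below 0 in 5 members and above 0 in 3, with a median of −0.38, beside −0.01 over all tested genes.

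*Epb41l4aos* had the lowest fold change. It lies at chr18:33794892-33795986 on the plus strand (GRCm38, as are all positions here) and has 430 bases of exon in the annotation. It had 29.2, 34.1 and 28.2 normalized counts in VEC-positive libraries, against 50.5, 77.2 and 100.2 in VEC-null libraries. Every VEC-positive library was below every VEC-null library, and the VEC-null libraries differed from each other by more than the VEC-positive ones did. The values rest on 95 reads in the VEC-positive and 244 reads in the VEC-null libraries. The log2 fold change was −1.24 ± 0.27 (SE, 95% interval −1.87 to −0.61, adjusted p = 0.00845), and the call held in all 17 alternative settings, with adjusted p between 0.00113 and 0.0356. *Epb41l4a* starts 212074 bases away on the opposite strand, but it spans chr18:33796327-34006966. Its 3′ end therefore lies just past the end of *Epb41l4aos*, and whether reads run from either gene into the other was not tested. *Epb41l4a* was below the filter on low values. It had 10 reads in VEC-positive libraries (0, 6.82 and 2.42 normalized counts) and 40 reads in VEC-null libraries (18.4, 8.66 and 15.1). Its groups did not overlap either, and no test was made of it. A snoRNA gene model inside the span of *Epb41l4aos*, *Gm23639*, had overlapping groups, with 51.3, 62.3 and 73.4 normalized counts in VEC-positive and 56.6, 104.7 and 52.3 in VEC-null libraries. Its log2 fold change was −0.13 (adjusted p = 0.747), and the difference between it and *Epb41l4aos* was not tested.

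*Snhg17*, a host of 3 annotated snoRNA genes (chr2:158353700-158361580, minus strand), was the other gene with a lower call. It had 32.7, 44.8 and 40.4 normalized counts in VEC-positive libraries, against 50.5, 82.7 and 68.3 in VEC-null libraries. The groups did not overlap, though the highest VEC-positive and the lowest VEC-null library lay close together. With 124 reads in VEC-positive and 215 in VEC-null libraries, the log2 fold change was −0.74 ± 0.24 (SE, 95% interval −1.30 to −0.19, adjusted p = 0.0418). This call was near the threshold and was lost in 7 of 17 settings: with DESeq2 (adjusted p = 0.0537), with no filter on low values (0.0559), and without VEC-null 2 (0.143), VEC-null 3 (0.0516), VEC-positive 1 (0.137), VEC-positive 2 (0.0683) or VEC-positive 3 (0.0949). The fold change stayed between −0.93 and −0.58 when 1 library was left out.

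*Snhg12*, which hosts 5 annotated snoRNA genes (chr4:132308623-132311024, plus strand), had 24.5, 39.9 and 40.4 normalized counts in VEC-positive libraries, against 58.1, 53.6 and 41.7 in VEC-null libraries. The groups did not overlap, but VEC-null 3 was only just above the highest VEC-positive library. The log2 fold change of −0.56 ± 0.26 (SE, 95% interval −1.17 to 0.05) was not called (adjusted p = 0.137). It reached −0.86 (adjusted p = 0.0264) when libraries were scaled to equal totals, a scaling that moves the median of all genes to −0.32.

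*Gas5*, named for its accumulation in growth-arrested cells, hosts 10 annotated snoRNA genes (chr1:161034422-161038539, plus strand). It had 26.8, 31.2 and 33.9 normalized counts in VEC-positive libraries, against 41.3, 76.4 and 23.1 in VEC-null libraries. The VEC-null libraries enclosed the VEC-positive ones, with VEC-null 2 far above and VEC-null 3 below all others. The coefficient of variation was 11.6% among VEC-positive and 57.8% among VEC-null libraries, beside a counting error per library of about 17.6% and 14.1%. The log2 fold change was −0.44 ± 0.40 (SE, 95% interval −1.37 to 0.48, adjusted p = 0.419). Single libraries decided this value, which was −0.86 (adjusted p = 0.0380) without VEC-null 3 and −0.02 without VEC-null 2.

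The start of *Gas5* lies 427 bases from that of *Zbtb37*, a zinc finger gene on the opposite strand, and the 2 genes share 428 bases. *Zbtb37* had 169, 140 and 190 normalized counts in VEC-positive libraries, against 263, 247 and 327 in VEC-null libraries, and all VEC-positive libraries were lower. Its log2 fold change was −0.74 ± 0.16 (SE, adjusted p = 0.00670), called in every alternative setting. The kit marks the strand, but the sources used here do not say whether reads were counted by strand, so reads from the shared stretch cannot be told apart.

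*Snhg5*, a host of 2 annotated snoRNA genes (chr9:88521050-88522929, minus strand), had 131, 188 and 102 normalized counts in VEC-positive libraries, against 173, 133 and 209 in VEC-null libraries. The groups overlapped, and the log2 fold change of −0.31 ± 0.25 (SE, 95% interval −0.89 to 0.26, adjusted p = 0.359) was within their spread. *Snhg8*, a host of 1 annotated snoRNA gene (chr3:123507552-123508404, minus strand), was the least abundant member by count, with 10.5, 17.5 and 20.2 normalized counts in VEC-positive libraries and 18.4, 9.45 and 14.2 in VEC-null libraries. With only 52 reads in VEC-positive and 40 in VEC-null libraries, its log2 fold change of 0.18 ± 0.38 (SE, adjusted p = 0.734) had a 95% interval of −0.70 to 1.07. That interval includes both no difference and a 2-fold higher level, but not a 2-fold lower one. A 2-fold rise and no difference therefore cannot be told apart at this depth. Its value turned to −0.11 with equal totals and to −0.05 without VEC-null 2.

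**Figure D2:**
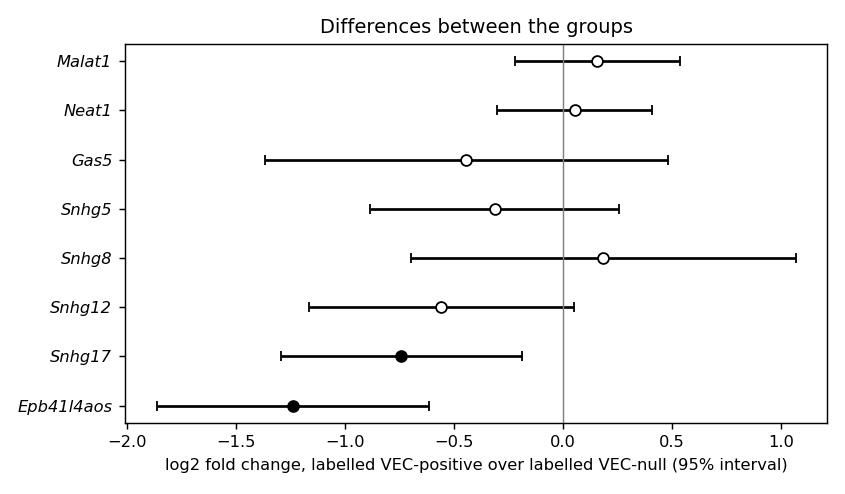
Log2 fold change between VEC-positive and VEC-null libraries (positive where VEC-positive is higher) for each of the 8 members (points, filled where called) with its 95% interval (bars) on a linear axis. The intervals of *Epb41l4aos* (−1.87 to −0.61) and *Snhg17* (−1.30 to −0.19) lie below 0 and the others cross it.

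*Malat1* was by far the most abundant member (chr19:5795690-5802672, minus strand). It had 41608, 35338 and 31248 normalized counts in VEC-positive libraries, against 28080, 39105 and 30105 in VEC-null libraries. The groups overlapped widely: VEC-positive 1 and VEC-null 2 were the highest libraries and VEC-null 1 the lowest. It took 0.274 to 0.372% of the reads of VEC-positive libraries and 0.304 to 0.426% of those of VEC-null libraries, and ranked number 13 by mean among all genes. The coefficient of variation was 14.5% among VEC-positive and 18.1% among VEC-null libraries, while the counting error was 0.521 and 0.542%. The log2 fold change was 0.16 ± 0.16 (SE, 95% interval −0.22 to 0.54, adjusted p = 0.483). It was −0.15 with equal totals.

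*Neat1* lies 22035 bases from *Malat1* on the same strand (chr19:5824708-5845478). It had 1424, 1147 and 1034 normalized counts in VEC-positive libraries, against 1030, 1400 and 1048 in VEC-null libraries. The highest libraries were again VEC-positive 1 and VEC-null 2. Its log2 fold change was 0.05 ± 0.15 (SE, 95% interval −0.30 to 0.41, adjusted p = 0.810), and its sign changed in 5 of 17 settings, so no direction is given.

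Across the 6 libraries the 2 genes moved together. The ratio of *Malat1* to *Neat1* normalized counts was 29.2, 30.8 and 30.2 in VEC-positive libraries and 27.3, 27.9 and 28.7 in VEC-null libraries. It averaged 30.1 ± 0.811 in VEC-positive and 28.0 ± 0.730 in VEC-null libraries, with no overlap, and the exact permutation test (two-sided) gave p = 0.1, the smallest that 3 against 3 libraries allow. Among the 8398 other genes with a mean of at least 100, *Neat1* was the one whose log2 values, centred per gene, were nearest to *Malat1*, with a root mean square difference of 0.06. The next were *Pacsin3* (0.06) and *Gm14391* (0.07). With equal totals *Neat1* was number 2, and *Malat1* was number 2 in likeness to *Neat1* under both scalings. This likeness is over 6 libraries that share depth and preparation with every other gene. The genes nearest to *Gas5* were *Nav2* (0.17), *Gm4963* (0.19) and *Gm13436* (0.20), and the low counts of *Gas5* add to these distances.

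**Figure D3:**
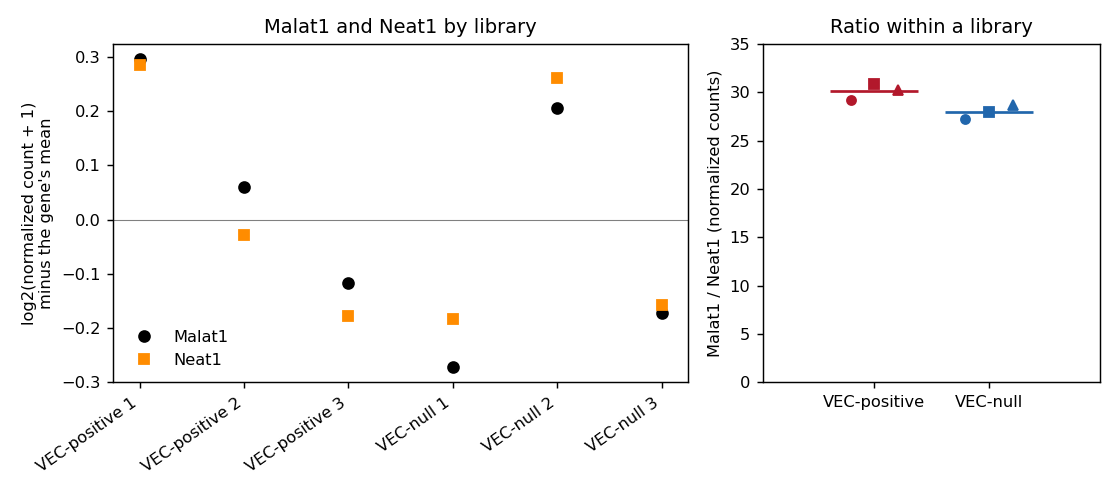
Left, log2(normalized count + 1) of *Malat1* and *Neat1*, each minus its own mean, in the 6 libraries, and right, the ratio of their normalized counts in each library with a line at the group mean. Both genes are highest in VEC-positive 1 and VEC-null 2, and the ratios lie at 29.2 to 30.8 in VEC-positive and 27.3 to 28.7 in VEC-null libraries.

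*Frmd8* was the protein-coding gene whose start was nearest to that of *Neat1*. It lay 29796 bases away and had 47.8, 63.3 and 66.2 normalized counts in VEC-positive and 65.8, 59.9 and 41.7 in VEC-null libraries, with overlapping groups (log2 fold change 0.09, adjusted p = 0.781). The difference between *Frmd8* and *Neat1* was not tested.

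*Snhg1* (chr19:8723475-8726443, plus strand) could be followed only through the 8 snoRNA genes in its span, and the most abundant of them was higher in the libraries labelled VEC-positive. *Snord22*, a box C/D snoRNA, had 337, 588 and 360 normalized counts in VEC-positive libraries, against 185, 143 and 215 in VEC-null libraries. No VEC-null library reached the lowest VEC-positive one. Its log2 fold change was 1.21 ± 0.23 (SE, 95% interval 0.68 to 1.75, adjusted p = 0.00447, 1339 reads in VEC-positive and 545 in VEC-null libraries), and the call held in every alternative setting. A second one, *Gm22744*, also had groups that did not overlap, with 37.3, 41.9 and 32.3 normalized counts in VEC-positive and 26.0, 24.4 and 16.9 in VEC-null libraries, but was not called (log2 fold change 0.72 ± 0.26, SE, adjusted p = 0.0627). It passed the threshold in limma without a trend (adjusted p = 0.0352). The sequences of these 2 RNAs, from GENCODE M21, hold letters that match the short motifs that bind the core proteins of the class. Box C (searched as TGANGA, N being any base) and box D (the CTGA nearest the 3′ end) are in capitals. An earlier CTGA in *Snord22* is left in lower case.
*Snord22* (chr19:8725866-8725991, plus strand): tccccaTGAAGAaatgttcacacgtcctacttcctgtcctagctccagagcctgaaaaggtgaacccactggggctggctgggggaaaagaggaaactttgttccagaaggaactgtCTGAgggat
*Gm22744* (chr19:8725092-8725156, plus strand): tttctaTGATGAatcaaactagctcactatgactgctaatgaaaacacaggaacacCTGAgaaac

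*Snord22* is 126 bases long and *Gm22744* 65, and the 6 others are 67 to 76 bases long. *Gm25894* had 30.3, 22.4 and 17.8 normalized counts in VEC-positive libraries, against 1.53, 14.2 and 8.87 in VEC-null libraries (log2 fold change 1.73 ± 0.64, SE, adjusted p = 0.0689). It passed the threshold without VEC-null 2 (adjusted p = 0.0362) or VEC-null 3 (0.0407). *Gm24452* and *Gm24453* had log2 fold changes of 0.19 and −0.17 (adjusted p = 0.731 and 0.759), and *Gm25855*, *Gm22680* and *Gm23246* were below the filter. Summed over the 8 genes, normalized counts were 454, 707 and 445 in VEC-positive libraries, against 274, 232 and 271 in VEC-null libraries, with means of 536 ± 149 and 259 ± 23.7 (exact permutation p = 0.1, two-sided, the smallest possible). Without *Snord22*, the 7 others summed to 107 ± 18.6 in VEC-positive and 77.9 ± 18.3 in VEC-null libraries (exact permutation p = 0.3). Reads of the unmatched *Snhg1* transcript that cross a snoRNA gene and reads of the snoRNA itself cannot be told apart here. *Slc3a2*, the heavy chain of amino acid transporters, starts 106 bases from *Snhg1* on the opposite strand and had 345, 397 and 324 normalized counts in VEC-positive and 326, 332 and 373 in VEC-null libraries (log2 fold change 0.04, adjusted p = 0.780).

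**Figure D4:**
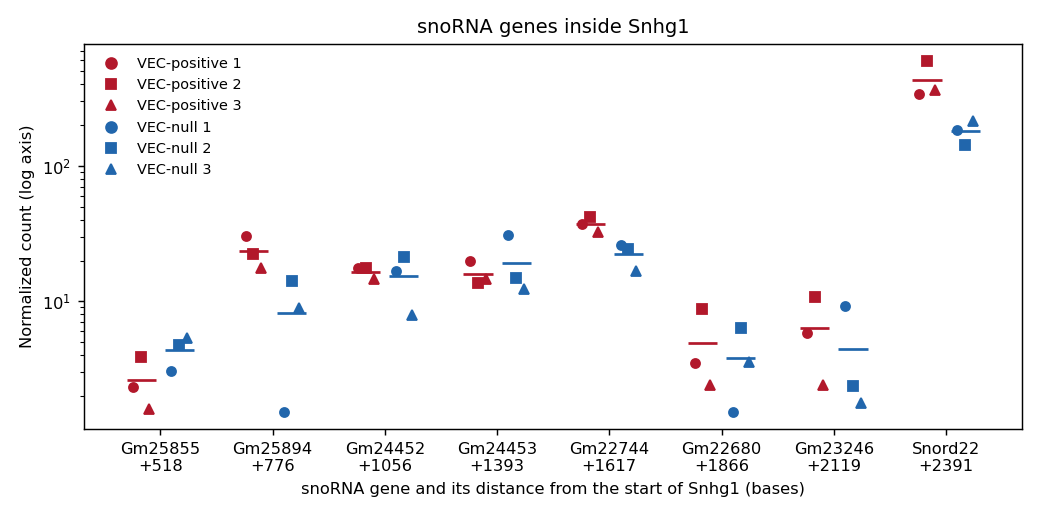
Normalized counts of the 8 snoRNA genes inside *Snhg1*, ordered by distance from the *Snhg1* start, on a log axis, with each library as a point, a line at the group mean and VEC-positive (red) left of VEC-null (blue). *Snord22* has the highest counts in both groups and separates them.

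In 5 other host genes the snoRNAs could not be followed. The annotation places 30 snoRNA genes inside the spans of the 9 members, and 21 of them, in *Gas5*, *Snhg5*, *Snhg8*, *Snhg12* and *Snhg17*, had no matching row. All 21 lie in an annotated exon of a host that had a row itself, whereas all 8 inside *Snhg1*, which had none, did have rows. Over the whole annotation, 32 of 163 snoRNA genes inside an exon of another gene had a row (19.6%), as did 222 of the 1395 others (15.9%).

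Genes of the same class and of the pathways around the members are given as counts beside the background. Of 631 other tested long noncoding RNA genes, 80 were higher and 51 lower (12.7% and 8.08%, against 20.9% and 16.4% of all tested genes), at a median level of 26.4 normalized counts, beside 157 over all tested genes. Among those with a mean of at least 50, the largest changes were in *Hectd2os*, with 103, 101 and 105 normalized counts in VEC-positive and 3.06, 13.4 and 7.09 in VEC-null libraries (log2 fold change 3.74, adjusted p = 0.000344), and in *Gm19557* (2.90, adjusted p = 9.57e-05). Among 13 widely studied long noncoding RNAs outside the members, 2 were higher, 2 lower and 9 not called. *Mir22hg*, the host of the microRNA miR-22, was higher, with 87.5, 81.8 and 74.2 normalized counts in VEC-positive and 30.6, 40.2 and 29.3 in VEC-null libraries (log2 fold change 1.27, adjusted p = 0.00164).

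Of 6 tested noncoding hosts in the written list, 1 was higher, 1 lower and 4 not called (33.3% called), with a median log2 fold change of −0.29. The lower one was *Zfas1*, with 156, 160 and 167 normalized counts in VEC-positive libraries, against 233, 232 and 200 in VEC-null libraries (log2 fold change −0.45 ± 0.11, SE, adjusted p = 0.0144). That call was lost without VEC-null 2 (adjusted p = 0.0538), VEC-positive 1 (0.0591) or VEC-positive 2 (0.0550). Of 16 noncoding hosts that the annotation gives beside the members, 1 was higher, 1 lower and 14 not called (12.5% called). Of 229 protein-coding snoRNA hosts, 38 were higher and 53 lower (16.6% and 23.1%), a called share of 39.7% beside 37.3% of all tested genes, among them *Ptprb*, the endothelial receptor phosphatase VE-PTP (log2 fold change 1.88), and *Chd3*, a chromatin remodeller (−1.97). Of 68 tested snoRNA genes, 5 were higher and 7 lower, a called share of 17.6%, also beside 37.3% of all tested genes. The median level was 34.4 normalized counts in the noncoding hosts of the annotation and 30.8 in the snoRNA genes, beside 157 over all tested genes.

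Of 15 genes for paraspeckle proteins, which bind *Neat1* RNA, 1 was higher, 4 were lower and 10 were not called. *Nono*, a core protein without which paraspeckles do not form, had 3211, 3107 and 2920 normalized counts in VEC-positive libraries, against 4999, 4258 and 4061 in VEC-null libraries. It was lower in every setting (log2 fold change −0.52 ± 0.09, SE, adjusted p = 0.00332), as was *Smarca4*, a chromatin remodeller (−0.35 ± 0.08, SE, adjusted p = 0.00852). Of 18 nuclear speckle genes 2 were higher and 4 lower, and of 14 tested genes for the processing and stability of the *Malat1* 3′ end 2 were higher and 12 not called. At the list level these counts are beside 20.9% higher and 16.4% lower over all genes, so in lists of this size they describe the genes and not the list.

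Of 14 nonsense-mediated decay factors, which act on spliced host transcripts, 1 was higher and 3 were lower. *Smg5* had the largest change, with 425, 393 and 409 normalized counts in VEC-positive libraries, against 632, 607 and 650 in VEC-null libraries (log2 fold change −0.62 ± 0.08, SE, adjusted p = 0.000521). Of 16 genes for proteins of snoRNA particles 2 were higher and 4 lower, with *Dkc1*, the pseudouridine synthase dyskerin, at a log2 fold change of −0.49 (adjusted p = 0.00400). Of 22 translation factors with a TOP start, 8 were higher and 4 lower, and *Eif4a2*, an RNA helicase of translation initiation, was at 0.88 (adjusted p = 0.00232). Of 80 cytosolic ribosomal protein genes, which also carry TOP starts, 6 were higher, 8 were lower and 66 were not called, with a median log2 fold change of −0.01. Called shares were 28.6% of the decay factors and 37.5% of the genes for snoRNA particles. They were 54.5% of the TOP translation factors and 17.5% of the ribosomal protein genes, beside 37.3% of all tested genes. No list was tested as a set.

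**Figure D5:**
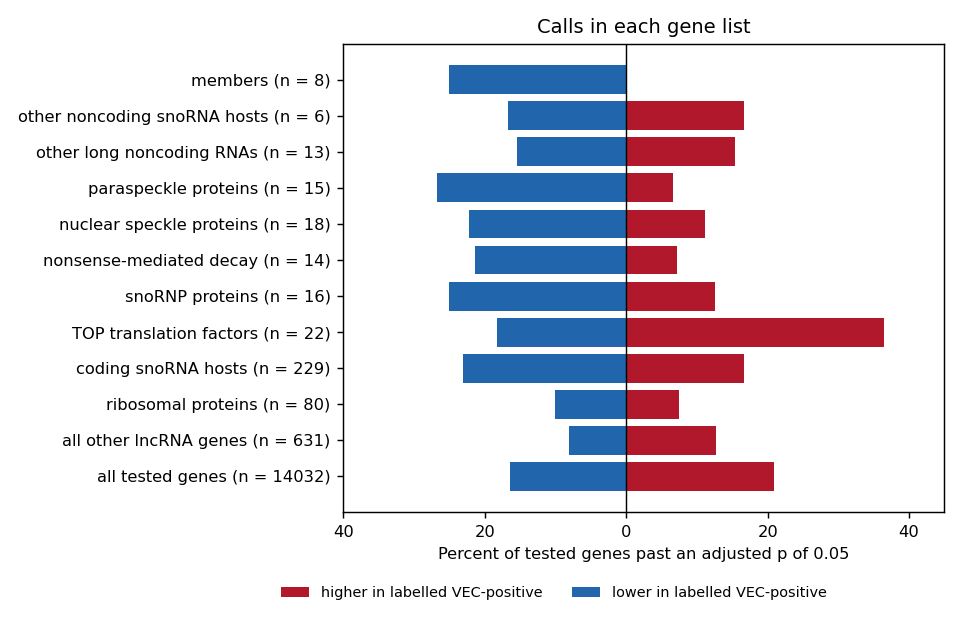
Percent of tested genes called higher (right of 0) or lower (left of 0) in the libraries labelled VEC-positive, for the members, 10 of the gene lists and all tested genes, with the number tested beside each name. The members show 25% lower and no higher call, beside 16.4% and 20.9% of all tested genes.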

How the data were processed

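Total RNA of VEC-positive and VEC-null endothelial cells was sequenced in 3 libraries each. According to the submitters' processing notes the authors used Trim Galore, TopHat2 2.1.1, mm10 and DESeq2 1.14. The counting program, annotation and strand setting were not given in the sources used here. Signal values as deposited are gene counts that the authors had divided by 1 size factor per library: all values were whole multiples of 1 step per library (tolerance 0.01 read), which gave the recovered reads. GENCODE M21 named 23908 of 24080 rows. A value of 10 or more in 3 or more libraries was required, which 14032 genes met. Values were tested as log2(value + 1) by limma 3.58.1 (R 4.3.3) in its trend mode, two-sided, and p-values were adjusted after Benjamini and Hochberg over these genes, with 0.05 as threshold. Fold changes on this scale understate those of low genes. Alternatives included count tests of the recovered reads with DESeq2 1.42.0 and with edgeR 4.0.16. The fits were tested on simulated data. Intervals are 95% and counting errors cover read number only.

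The members and lists were chosen with earlier results of these data known. Genes named beside the members are snoRNA genes inside or overlapping them, their nearest protein-coding neighbours, of each list up to 3 called genes, those that changed most at a mean of 50 or more, and the 3 genes nearest in pattern to *Malat1* and *Gas5*. Not every gene so drawn is reported here.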

Additional observations from a re-analysis of the deposited data

How the results depend on the processing

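Of 17 alternative settings, 11 kept all libraries and 6 left 1 out. Of the members, 2 were lower, but 1 with DESeq2, 1 with no filter, and 1 to 2 when a library was left out. Scaling to equal totals shifted all genes (median log2 fold change −0.32), and 4960 genes were then lower and 1566 higher (2304 and 2927 as deposited). Fold changes that changed sign were *Malat1* (−0.15), *Neat1* (−0.26), *Snhg8* (−0.11), *Gm24452* (−0.10), *Frmd8* (−0.21), *Slc3a2* (−0.27) and *Smg6* (−0.049). Equal totals without mitochondrial genes turned *Neat1* (−0.092), *Frmd8* (−0.049) and *Slc3a2* (−0.10). Leaving out 1 library gave ranges across 0 for *Neat1* (−0.076 to 0.20), *Snhg8* (−0.053 to 0.45), *Gm24452* (−0.19 to 0.46), *Gm24453* (−0.42 to 0.20), *Gm23639* (−0.32 to 0.18), *Frmd8* (−0.10 to 0.24) and *Slc3a2* (−0.038 to 0.11). None of these was called, except *Smg6*, and the cause was not tested. Same-numbered libraries did not deviate together (correlations of 0.08, −0.33 and −0.30). With the replicate number as a block, limma called 1744 genes lower and 2400 higher, with 2 members lower and 0 higher; *Zfas1* lost its call (adjusted p = 0.0510). *Gas5*, *Snhg8* and *Snhg12* were not tested under a filter of at least 50. Members other than *Malat1*, *Neat1* and *Snhg5* had 40 to 244 reads per group. In the VEC-null libraries the coefficient of variation was still above the counting error in *Gas5* (57.8 and 14.1%), *Epb41l4aos* (32.7 and 11.1%) and *Snhg17* (24.0 and 11.8%). It was less far above it in *Snhg8* (31.85 and 27.39%) and *Snhg12* (16.6 and 14%).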
